A study of Mus musculus with 2 samples.

Results

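The cytosolic ribosomal protein genes are described here in single cells of the mouse heart. Members were the rows whose symbol starts with Rpl or Rps followed by a number and an optional paralog letter, or is Rplp0, Rplp1, Rplp2 or Rpsa, with at least 20 UMIs (unique molecular identifiers, each standing for 1 captured transcript) over both libraries. This gave 82 members among 22441 gene symbols, 50 of the large and 32 of the small subunit, and all 82 had a UMI in both libraries. Of the 84 matching symbols, Rpl10l (0 UMIs, which allows up to 0.310 and 0.271 UMIs per 1000000 in the wild-type and AC8 libraries) and Rpl39l (16 UMIs) fell outside the minimum. Rpl3l (25 UMIs), the form that takes the place of Rpl3 in striated muscle, lay just inside it, and the member with the next fewest, Rpl7l1, had 1003 UMIs.

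The wild-type group is a pool of C57/B6 mice, littermates of the second group. That group is a pool of C57/B6 mice overexpressing AC8 (adenylyl cyclase type 8, which makes cyclic AMP), in cardiomyocytes according to the series title. Both are untreated by the labels, and neither the age, the promoter of the transgene nor the number of mice in a pool is given in the sources used here. Leukocytes (CD45+CD31-), mesenchymal cells (CD45-CD31-) and endothelial cells (CD45-CD31+) were sorted from fresh hearts, mixed in equal numbers and made into 1 droplet library per genotype, so cardiomyocytes were not among the sorted fractions. With 1 library of pooled mice per genotype no difference has a replicate check, none was tested, and genotype, pool and library preparation cannot be told apart. All intervals are exact at 95% and cover counting error only.

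Each ribosome holds 1 copy of nearly every one of these proteins, and their mRNAs are among the most abundant in a cell. Most of these mRNAs start with a C followed by an unbroken run of C and T bases, the 5' terminal oligopyrimidine (TOP) element, through which mTORC1 signalling and the protein Larp1 set their translation and stability together. The genes also have many processed pseudogenes, and some have paralogs with tissue-restricted expression.

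The start sites of 7 members are shown here because an oligopyrimidine run at the transcript start is the element the family is known for. All 7 were taken from members in which a run was found, so they do not show how common it is. Rplp0, Rpsa and Rplp1, which also differed between the libraries, are not among them. RefSeq start windows (build GRCm38.p6) were found for 62 members, and a C followed by at least 7 bases that are each C or T was searched on the gene's own strand from 10 bases before to 50 bases after the start. Capitals mark the longest such run, which may continue past the end of the stretch shown. Rpl10, Rps12, Rpl13a and Rps21 were lower in the AC8 library in all 4 classes compared, and Rps2, Rpl41 and Rpl11 were higher in all 4. The stretches lie at chrX:74270836-74270865 (plus strand, Rpl10), chr10:23787180-23787209 (minus, Rps12), chr7:45128722-45128751 (minus, Rpl13a), chr2:180257399-180257428 (plus, Rps21), chr17:24720083-24720112 (plus, Rps2), chr10:128549119-128549148 (minus, Rpl41) and chr4:136053358-136053387 (minus, Rpl11).
Rpl10: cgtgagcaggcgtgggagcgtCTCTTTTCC
Rps12: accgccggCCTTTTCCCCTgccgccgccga
Rpl13a: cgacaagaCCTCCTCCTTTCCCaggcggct
Rps21: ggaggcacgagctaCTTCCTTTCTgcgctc
Rps2: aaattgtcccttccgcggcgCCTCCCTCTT
Rpl41: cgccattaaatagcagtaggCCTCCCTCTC
Rpl11: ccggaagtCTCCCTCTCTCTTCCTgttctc
Counted from the RefSeq start as base 1, the run began at base 3 in Rpl13a, 9 in Rps12, 15 in Rpl11, 35 in Rps21, 41 in Rps2 and in Rpl41, and 42 in Rpl10. None of these 7 began at the annotated start itself, so the capitals mark runs near the start and not a TOP element shown to open the transcript. A run was found in 45 of the 62 members (72.6%), against 5106 of 27025 genes with a window (18.9%). Members with a run lay on both sides of the difference between libraries. Among the 8 members that were lower in every class compared, 5 had a window and 4 of them held the run.

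There were 5800 wild-type cells with 9664932 UMIs in all and 4867 AC8 cells with 11076564. After filtering, 3546 and 3578 cells remained, with medians of 1883 and 2327 UMIs. Ribosomal protein genes were kept out of the clustering, so that the classes do not rest on the members, and 18 of 19 clusters were named by markers into 9 classes. Fibroblast-like (1906 and 1533 cells), macrophage-like (590 and 730), endothelial-like (617 and 569) and B cell-like cells (110 and 291) had at least 100 cells in each library and were compared. Dendritic cell-like (70 and 149), NK cell-like (64 and 62), mural-like (67 and 74), T cell-like (56 and 78) and Schwann-like cells (31 and 22) did not. Values of these smaller classes are given as a description. Paired values below are wild type first and AC8 second. The 8 fibroblast markers summed to 58187 and 64985 CPM (UMIs per 1000000 of the class) in fibroblast-like cells and to at most 649 CPM in the other 3 classes, and the 8 endothelial markers to 23248 and 18422 CPM in endothelial-like cells. The 8 macrophage markers summed to 16429 and 17539 CPM in macrophage-like cells and to at most 171 CPM in the others. The 7 B cell markers summed to 30949 and 39660 CPM in B cell-like cells but also to 28273 and 21539 CPM in macrophage-like cells, and Cd74 of the antigen presentation pathway is among them. The barcodes are deposited as running numbers, so barcodes shared by the libraries could not be counted.

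Ribosomal protein genes took a share of the RNA that differed far more between cell classes than between the libraries. In T cell-like cells they made up 38.04% and 37.4% of UMIs, in B cell-like cells 23.8% and 23.5%, while NK cell-like cells had 21.2% and 18.1%. Dendritic cell-like cells followed at 17.7% and 15.7%. Fibroblast-like (11.5% and 11.8%), macrophage-like (11.6% and 10.4%) and endothelial-like cells (10.3% and 9.89%) lay close together, and mural-like (6.73% and 7.95%) and Schwann-like cells (4.42% and 3.91%) stood lowest. The T cell-like, B cell-like, NK cell-like and dendritic cell-like classes stood above the 5 others in both libraries.

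**Figure D1:**
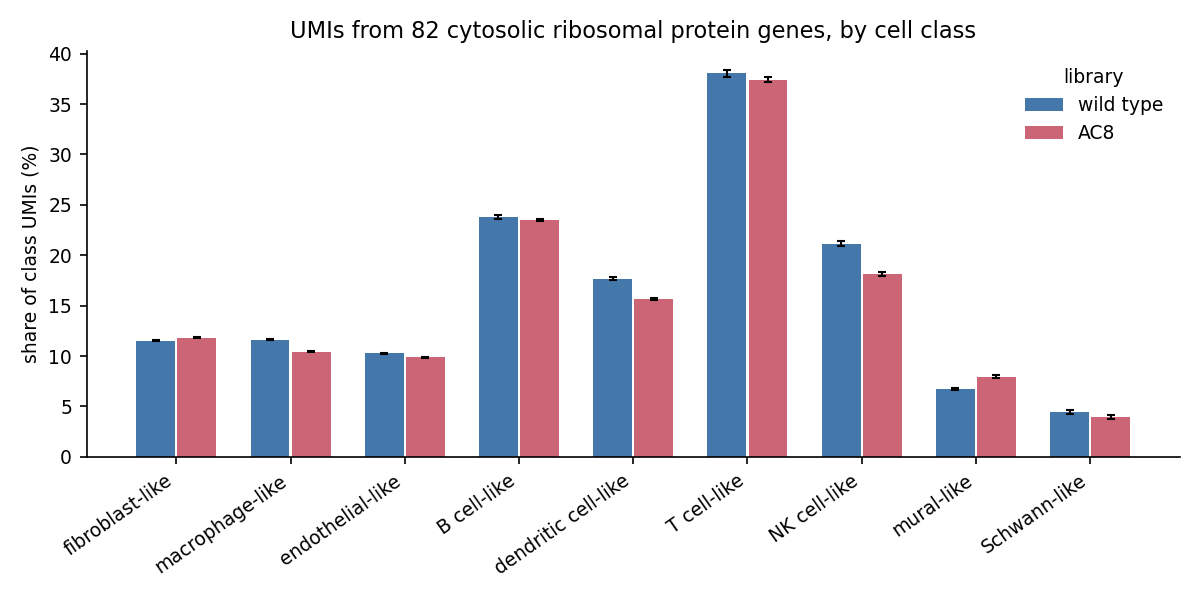
Bars give the share of a class's UMIs that came from the 82 ribosomal protein genes, in percent, for the wild-type and AC8 libraries in 9 cell classes; error bars are exact 95% binomial intervals (counting error only). T cell-like cells stand at 38.04% and 37.4%, Schwann-like cells at 4.42% and 3.91%, and the classes differ more than the libraries do.

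Between the libraries the share lay on opposite sides of even in the 2 largest classes. Fibroblast-like cells had a ratio of AC8 to wild type of 1.026 (1.022 to 1.030) and macrophage-like cells one of 0.900 (0.894 to 0.905). The ratio was 0.964 (0.955 to 0.973) in endothelial-like and 0.987 (0.975 to 0.999) in B cell-like cells. Depth differed in the same classes, with a median of 2161.5 and 2736 UMIs per fibroblast-like cell and 2011 and 3227 per macrophage-like cell. Within ranges of UMIs per cell that held at least 20 cells of each library, the AC8 share of macrophage-like cells was lower in 4 of 4 ranges, and that of fibroblast-like cells was lower in 3 and higher in 2 of 5. In the endothelial-like class the share was lower in 2 and higher in 1 of 3 ranges, and with at least 2000 UMIs and 1000 genes required of each cell its ratio turned to 1.05. The B cell-like class had 1 such range, 1000 to 1500 UMIs, where the share was 23.5% (23.2 to 23.7) and 23.6% (23.4 to 23.7).

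The macrophage-like class was not uniform. Its largest cluster, led by C1qc, C1qa and Cxcl2 (394 and 371 cells), had a ribosomal share of 14.1% and 12.4%, a ratio of 0.877 (0.870 to 0.884). The cluster led by F13a1, Mrc1, Lyve1 and Folr2 (192 and 290 cells), genes of resident cardiac macrophages, had 7.55% and 8.48%, a ratio of 1.12 (1.11 to 1.14). Another cluster, led by Spp1 and Gpnmb, had 4 and 69 cells and was not compared by itself. Among the 7 fibroblast-like clusters the ratio ran from 0.964 to 1.20, with the highest in a cluster of 100 and 64 cells whose ribosomal share was only 2.46% and 2.95%. Neutrophil markers moved with the macrophage-like class, where the 7 markers summed to 474 and 113 CPM (Ly6g at 0 UMIs in both libraries), and erythroid markers summed to 182 and 5.22 CPM there (Alas2 at 0 in wild type) and to 2529 and 705 CPM in endothelial-like cells (none of 5 at 0). Endothelial markers summed to 1127 and 235 CPM in B cell-like cells, with Cldn5 at 0 in AC8. Their part in the ribosomal differences was not tested.

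Beneath these small shifts of the family, single members differed between the libraries by more, such as Rpl10 in B cell-like cells with a ratio of 0.359. Some, Rpl10 and Rps12 among them, were lower in AC8 in each of the 4 classes, whereas others, such as Rps15 and Rps27l, passed 1.5-fold in 1 of the 4. A member was counted in a class where it had at least 30 UMIs over both libraries, and log2 ratios (AC8 over wild type) use a pseudocount of 10 CPM. In fibroblast-like cells 10 of 81 members were at least 1.5-fold lower in AC8, where 2.88% of all genes measured were, and 1 was at least 1.5-fold higher, where 0.799% were. In macrophage-like cells the counts were 14 of 81 lower (6.25% of all genes) and 1 higher (5.79%), in endothelial-like cells 12 of 81 lower (5.58%) and 0 higher (4.15%), and in B cell-like cells 17 of 80 lower (11.6%) and 1 higher (9.45%). The median log2 ratio of the members was -0.00, -0.20, -0.10 and -0.06 in these 4 classes, beside -0.05, -0.02, -0.02 and -0.03 over all genes measured.

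Of the 80 members measured in each of the 4 classes, 8 were at least 1.5-fold lower in all 4, among them Rps12, Rpl10, Rplp1, Rpl13a, Rps21, Rpl17 and Rps25. Over all 2474 genes measured in all 4 classes, 14 did so (0.566%), and 6 of those were not members. No member was at least 1.5-fold higher in all 4 classes, where 2 genes of 2474 (0.0808%) were, Nmt1 and Ccnb1ip1. With smaller differences counted too, 38 members were below 0 in all 4 classes and 25 were above 0 in all 4. The same counts were not made over all genes, so they are not read as particular to the family. The classes come from the same pair of libraries, so their likeness is not replication.

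**Figure D2:**
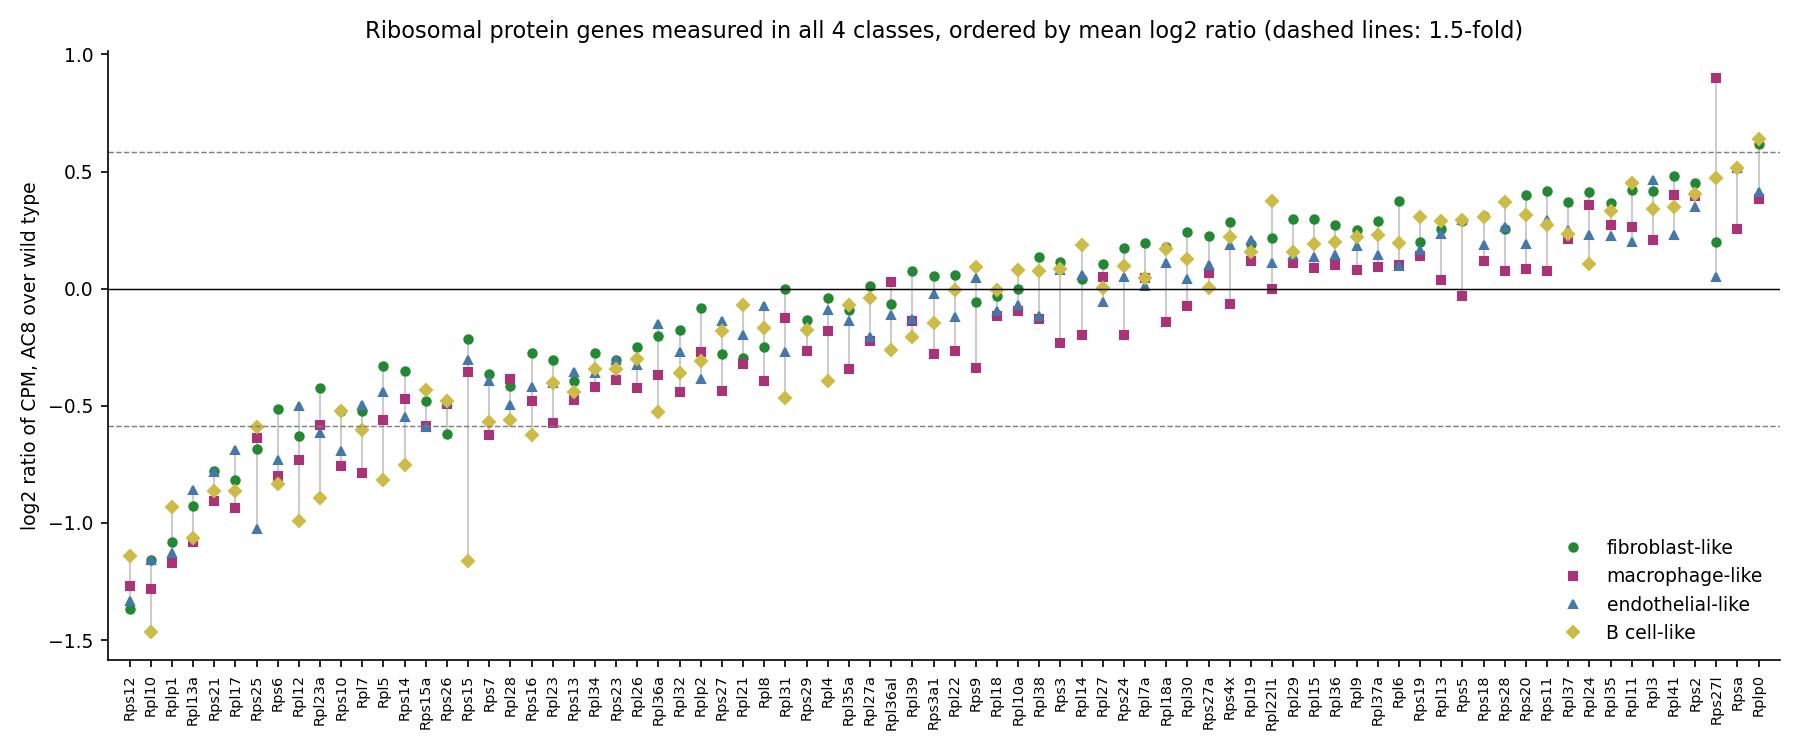
Each column is a member measured in all 4 classes (78 are drawn), ordered by its mean log2 ratio of CPM (AC8 over wild type, vertical axis), with a point for each class, a grey line for their range and dashed lines at 1.5-fold. The points run from Rps12 (-1.14 to -1.37) on the left to Rplp0 (0.38 to 0.64) on the right, while Rps15 in B cell-like and Rps27l in macrophage-like cells stand away from their other points.

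Rps12, a small subunit protein known in flies for its part in cell competition (chromosome 10, 23785183 to 23787275, minus strand), stood at 1211 and 464 CPM in fibroblast-like cells and at 963 and 394 CPM in macrophage-like cells. It had 1029 and 402 CPM in endothelial-like cells and 1393 and 627 CPM in B cell-like cells. The highest AC8 level therefore lay below the lowest wild-type level. Its ratios were 0.383 (0.364 to 0.403), 0.409 (0.376 to 0.443), 0.391 (0.345 to 0.442) and 0.450 (0.372 to 0.545), and these intervals overlap one another. Of the other classes T cell-like cells had the lowest ratio of Rps12, at 2166 and 692 CPM (0.319, 0.243 to 0.416).

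Rpl10, which joins the large subunit late in its maturation and is needed before the subunits can pair (chromosome X, 74270812 to 74273135, plus strand), had 1647 and 732 CPM in fibroblast-like cells and 1661 and 677 CPM in macrophage-like cells. It had 928 and 411 CPM in endothelial-like and 1860 and 667 CPM in B cell-like cells, so every AC8 level was again below every wild-type level. The ratios were 0.444 (0.426 to 0.463), 0.408 (0.383 to 0.434), 0.443 (0.391 to 0.501) and 0.359 (0.301 to 0.427). The other X-linked members lay on both sides. Rps4x had log2 ratios of 0.29, -0.06, 0.19 and 0.22, Rpl36a was lower throughout (-0.20, -0.37, -0.15 and -0.53), and Rpl39 had 0.07, -0.14, -0.13 and -0.21.

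The P-stalk of the large subunit, which recruits the elongation factors, was split. Rplp1, 1 of its acidic proteins (chromosome 9, 61913284 to 61914542, minus strand), stood at 1630 and 764 CPM in fibroblast-like, 1556 and 685 CPM in macrophage-like, 1202 and 545 CPM in endothelial-like and 2166 and 1131 CPM in B cell-like cells. Its partner Rplp2 stood nearer to even, with log2 ratios of -0.08, -0.27, -0.38 and -0.31. Rplp0, the base of the stalk (chromosome 5, 115559467 to 115563727, plus strand), was higher in AC8, at 1967 and 3027 CPM, 1704 and 2224 CPM, 1358 and 1813 CPM, and 2813 and 4380 CPM in the same order of classes. Its ratios were 1.539 (1.498 to 1.582), 1.31 (1.24 to 1.37), 1.34 (1.24 to 1.44) and 1.56 (1.40 to 1.74). Over all 9 classes the ratio of Rplp0 was above 1 in 9 of 9 with every interval above 1, and that of Rplp1 was below 1 in 9 of 9 with 8 intervals below 1.

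**Figure D3:**
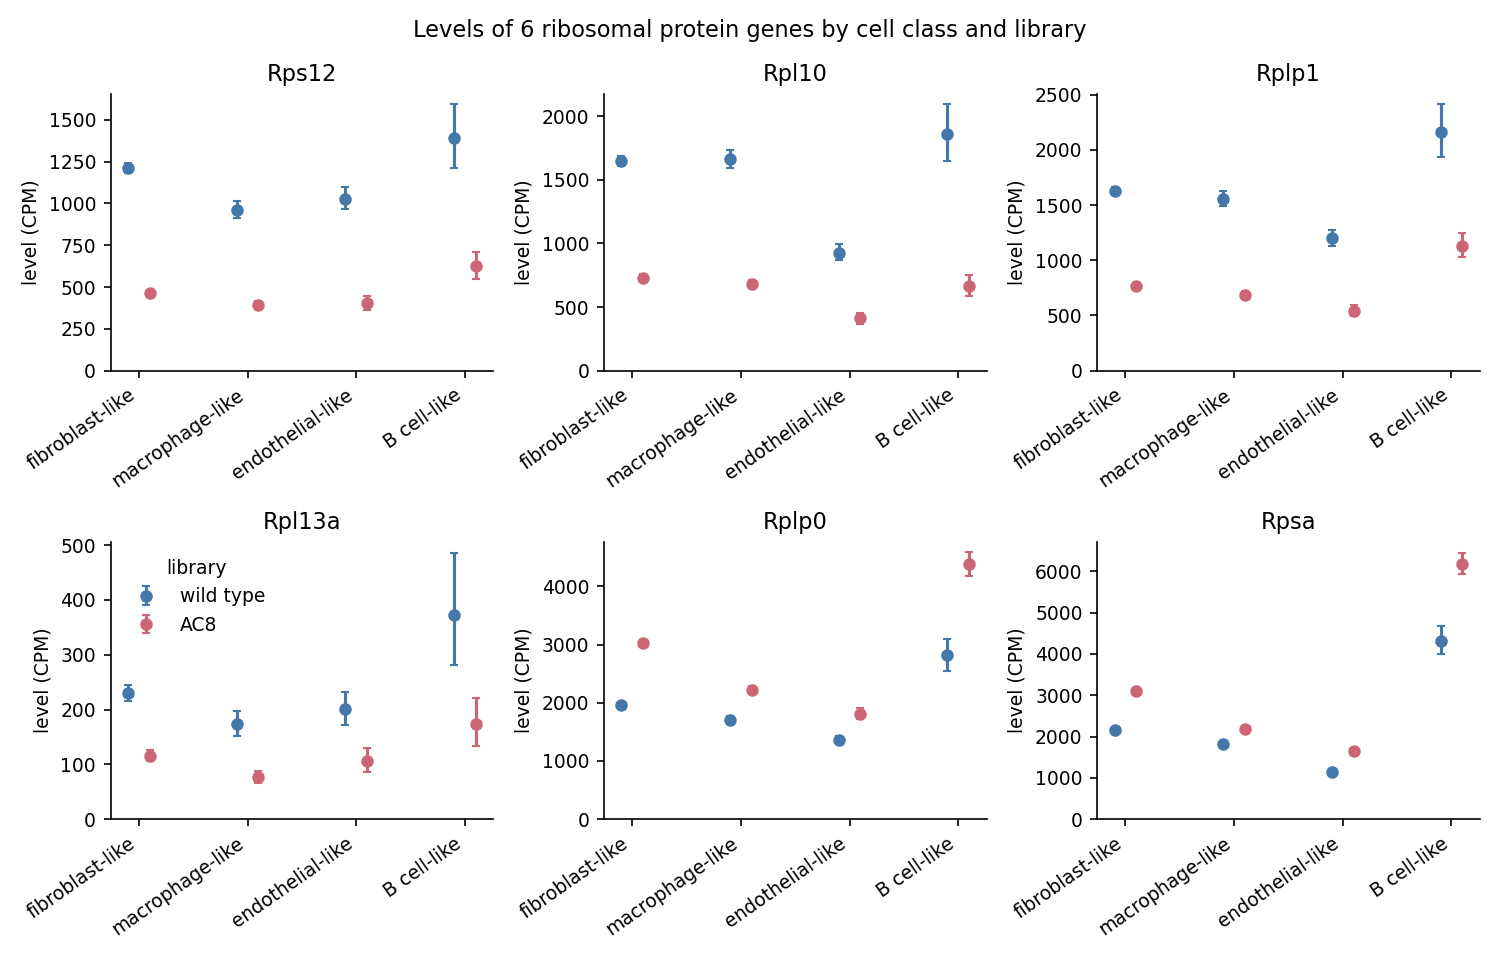
Each panel gives the level of 1 member in CPM (vertical axis, from 0) in 4 cell classes, with 1 point per library and exact 95% Poisson intervals. Rps12, Rpl10, Rplp1 and Rpl13a have the AC8 point below the wild-type point in every class, and Rplp0 and Rpsa have it above.

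Of the remaining members lower in all 4 classes, Rpl13a, known for the interferon-induced GAIT complex that silences translation in myeloid cells, had 230 and 116 CPM in fibroblast-like and 174 and 76.8 CPM in macrophage-like cells. Its ratios in the 4 classes ran from 0.442 to 0.529. Rps21 (0.531 to 0.581), Rpl17 (0.518 to 0.616) and Rps25 (0.476 to 0.657), the last needed for initiation at some internal ribosome entry sites, were the mildest of the 8. Rps6, the small subunit protein phosphorylated by S6 kinases, missed the count in fibroblast-like cells alone, with log2 ratios of -0.51, -0.80, -0.73 and -0.84.

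Other members passed 1.5-fold lower in some classes only, and most of them were lower by less in the rest. Rpl12 did so in fibroblast-like, macrophage-like and B cell-like cells (log2 ratios -0.63, -0.73 and -0.99) and stood at -0.50 in endothelial-like cells. Rps10 passed in macrophage-like and endothelial-like cells (-0.76 and -0.69) and stood at -0.52 in both others. Rps26 passed in fibroblast-like cells alone (-0.62), with -0.49, -0.48 and -0.48 elsewhere, and over the 9 classes its interval lay below 1 in 8. B cell-like cells added members such as Rpl5, Rps14, Rps15 and Rps16, of which Rps15 (-1.16) and Rps14 (-0.75) stood at -0.36 to -0.22 and at -0.55 to -0.35 in the other 3 classes. Those are also the cells with the fewest UMIs, 150021 and 374916, so their ratios are the least precise. On the other side, Rpl37 (log2 ratios 0.37, 0.21, 0.25 and 0.23) and Rpl41 had an interval above 1 in 8 of 9 classes without passing 1.5-fold in the 4 compared. Near even in all 4 classes stood Rpl18 (-0.03, -0.12, -0.10 and -0.00) and Rpl10a (-0.00, -0.10, -0.07 and 0.08), which is a different gene from Rpl10.

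Higher in AC8 beside Rplp0 was Rpsa, the small subunit protein also known as the laminin receptor (chromosome 9, 120127689 to 120132369, plus strand). It had 2166 and 3097 CPM in fibroblast-like, 1819 and 2174 CPM in macrophage-like, 1142 and 1639 CPM in endothelial-like and 4319 and 6185 CPM in B cell-like cells. Over all 9 classes the ratio of Rpsa was above 1 in 8, with 7 intervals above 1, and below 1 in 1 (0.666). Rps2 (log2 ratios 0.45, 0.40, 0.35 and 0.41), Rpl41, which encodes the shortest protein of the ribosome (0.48, 0.40, 0.23 and 0.35), and Rpl11, which with Rpl5 and the 5S RNA can bind Mdm2 (0.42, 0.26, 0.20 and 0.45), were higher in each class without passing 1.5-fold. Rpl5 itself went the other way, with log2 ratios of -0.33, -0.56, -0.44 and -0.82. Rpl3, of the peptidyl transferase region, was among the 4 highest members of endothelial-like cells, at 805 and 1114 CPM (1.38, 1.26 to 1.52). Small subunit members were a little lower than large subunit members in each class, with medians of -0.10 and 0.04 in fibroblast-like, -0.31 and -0.13 in macrophage-like, -0.15 and -0.09 in endothelial-like and -0.18 and -0.00 in B cell-like cells (small first).

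A second scale takes the change of the whole family out by giving each member as its share of the family's UMIs. On it Rpl10 went from 14.3 to 6.19 per 1000 family UMIs in fibroblast-like cells, a ratio of 0.433, and Rps12, Rpl10 and Rplp1 were among the lowest 4 members in 3 of the 4 classes. In B cell-like cells Rps15, a small subunit protein near the decoding site, took the place of Rplp1, at 513 and 224 CPM (0.437, 0.317 to 0.603), while its ratios in the other 3 classes were 0.856, 0.772 and 0.802. The 4 highest members on this scale were drawn from Rplp0, Rpsa, Rps2, Rpl41, Rpl3, Rpl11, Rpl7l1 and Rps27l.

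Offsets of Rps12, Rpl10, Rplp0 and Rpsa in the same direction were found in cells too shallow to enter the classes. Among deposited cells under 1000 UMIs, the ratio of Rps12 was 0.409 (0.362 to 0.462), that of Rpl10 0.430 (0.381 to 0.483), that of Rplp0 1.51 (1.42 to 1.62) and that of Rpsa 1.53 (1.44 to 1.62). Over all deposited cells, which include those of the classes, the ratios were 0.398, 0.451, 1.54 and 1.44. Within the 12 clusters of the 4 classes with at least 20 cells in each library, Rps12 ran from 0.348 to 0.556 and Rpl10 from 0.359 to 0.516, each below 1 in 12 of 12, and Rplp0 from 1.14 to 1.63, above 1 in 12 of 12.

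Reads from members with near-identical copies can be lost or divided in counting, so copies were searched. A copy was a stretch of 50 bases, in the last 300 bases of 1 transcript per member, that also occurs in a transcript of another gene (GENCODE vM21). The labels do not state which end of the transcript the libraries read, so the part searched may not be the part counted. A share of 0% holds for that part alone. The 8 members lower in all 4 classes had a median of 61.6% of such stretches shared (range 0 to 100), and the other 74 a median of 55.0% (0 to 100). Rpl10 shared 100% and Rps12 89.6%, while Rpl13a and Rps25 shared 0%, as did Rplp0 and Rpsa among the members that were higher. Of the 13 other genes that shared a stretch with Rpl10, 1 was among the gene symbols of the series, and of the 23 for Rps12, 0 were. Copies of this kind occurred among low, high and even members, and the levels of members that have them are uncertain. Their part in the differences between the libraries was not tested.

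Across the 4 classes, the share of family UMIs ranged from 1.06-fold for Rpl35 to 5.93-fold for Rps27l, among members with a UMI in each class and library. The widest range of the share of family UMIs over the 4 classes, by the mean of both libraries, belonged to Rps27l, a paralog of Rps27 that p53 induces (chromosome 9, 66946086 to 66949516, plus strand). It made up 2.32 and 2.49 per 1000 family UMIs in endothelial-like cells and 0.336 and 0.488 in B cell-like cells, a 5.93-fold range. Next came Rpl7l1 (0.566 and 0.824 in endothelial-like, 0.0841 and 0.193 in B cell-like cells) and Rpl7a of the large subunit (8.92 and 9.96 in fibroblast-like, 4.17 and 4.36 in B cell-like cells). In B cell-like cells Rpl7l1 was below the minimum of 30 UMIs over both libraries, so its range and its rank are imprecise. Rpl10 also ranked among the 6 widest, at 14.3 and 6.19 per 1000 in fibroblast-like, 14.3 and 6.49 in macrophage-like, 9.04 and 4.15 in endothelial-like and 7.82 and 2.84 in B cell-like cells. Rps27, a zinc finger protein of the small subunit, was highest in B cell-like cells, where its paralog was lowest, with 31.1 and 27.8 per 1000, and lowest in fibroblast-like cells, with 16.1 and 12.9.

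Between the libraries Rps27l was higher in AC8 by most in macrophage-like and dendritic cell-like cells. The dendritic cell-like class, with 70 and 149 cells, is not 1 of the 4 classes that met the minimum of 100 cells in each library. In macrophage-like cells Rps27l went from 134 to 257 CPM, a ratio of 1.93 (1.64 to 2.28), and in dendritic cell-like cells from 301 to 536 CPM, a ratio of 1.78 (1.37 to 2.34). Fibroblast-like cells had 207 and 239 CPM (1.15, 1.05 to 1.26) and endothelial-like cells 238 and 247 CPM (1.04, 0.856 to 1.26), and both intervals lie below those of the macrophage-like and dendritic cell-like classes. B cell-like cells had 80.0 and 115 CPM on 12 and 43 UMIs, and T cell-like cells 2 and 5 UMIs. The ratio was 1.69 (1.34 to 2.15) in the C1qc cluster of macrophage-like cells and 1.63 (1.25 to 2.16) in the Lyve1 cluster, both below the 1.93 of the whole class, which also holds the Spp1 cluster of 4 and 69 cells. Over the 12 clusters of the 4 classes its ratio ran from 0.403 to 1.69, with an interval above 1 in 3 of them and below 1 in 0. Among cells under 1000 UMIs it was 0.945 (0.758 to 1.17).

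With each cell thinned to 1000 UMIs, which left out none, Rps27l was detected in 11.9% (9.37 to 14.8) and 16.6% (13.9 to 19.5) of macrophage-like cells and in 21.4% (12.5 to 32.9) and 34.2% (26.7 to 42.4) of dendritic cell-like cells. Unthinned, those shares were 23.7% and 45.6%, and 48.6% and 73.8%. The lowest thinned shares were those of T cell-like cells, 3.57% (0.435 to 12.3) and 2.56% (0.312 to 8.96), whose median depths were 1369.5 and 1506.5 UMIs. The thinned intervals of the 2 libraries overlap in the macrophage-like and the dendritic cell-like class.

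The other paralogs had class patterns of their own. Rpl22l1, paralog of Rpl22, had 562 and 655 CPM in fibroblast-like cells, 295 and 295 CPM in macrophage-like cells, 287 and 310 CPM in endothelial-like cells and 700 and 910 CPM in B cell-like cells. Its highest level was in T cell-like cells at 1238 and 1269 CPM. Rpl22 stood at 997 and 1037 CPM, 1019 and 845 CPM, 816 and 750 CPM, and 1760 and 1755 CPM in the first 4 of these. Thinned to 1000 UMIs, 57.1% (43.2 to 70.3) and 73.1% (61.8 to 82.5) of T cell-like cells had a UMI of Rpl22l1 against 23.7% (20.4 to 27.4) and 22.2% (19.2 to 25.4) of macrophage-like cells. Rpl36al had 273 and 260 CPM and its partner Rpl36a 792 and 687 CPM in fibroblast-like cells, and their log2 ratios in the 4 classes were -0.07, 0.03, -0.11 and -0.26 for the first and -0.20, -0.37, -0.15 and -0.53 for the second. Rpl7l1 had 45.3 and 55.8 CPM in fibroblast-like and 58.1 and 81.5 CPM in endothelial-like cells (1.40, 0.972 to 2.04), whereas Rpl7 was lower in AC8 in both, with log2 ratios of -0.52 and -0.50. Rpl3l had 0 and 1 UMIs in fibroblast-like cells (the 0 allows up to 0.683 CPM), 2 and 3 in macrophage-like and 3 and 3 in endothelial-like cells.

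**Figure D4:**
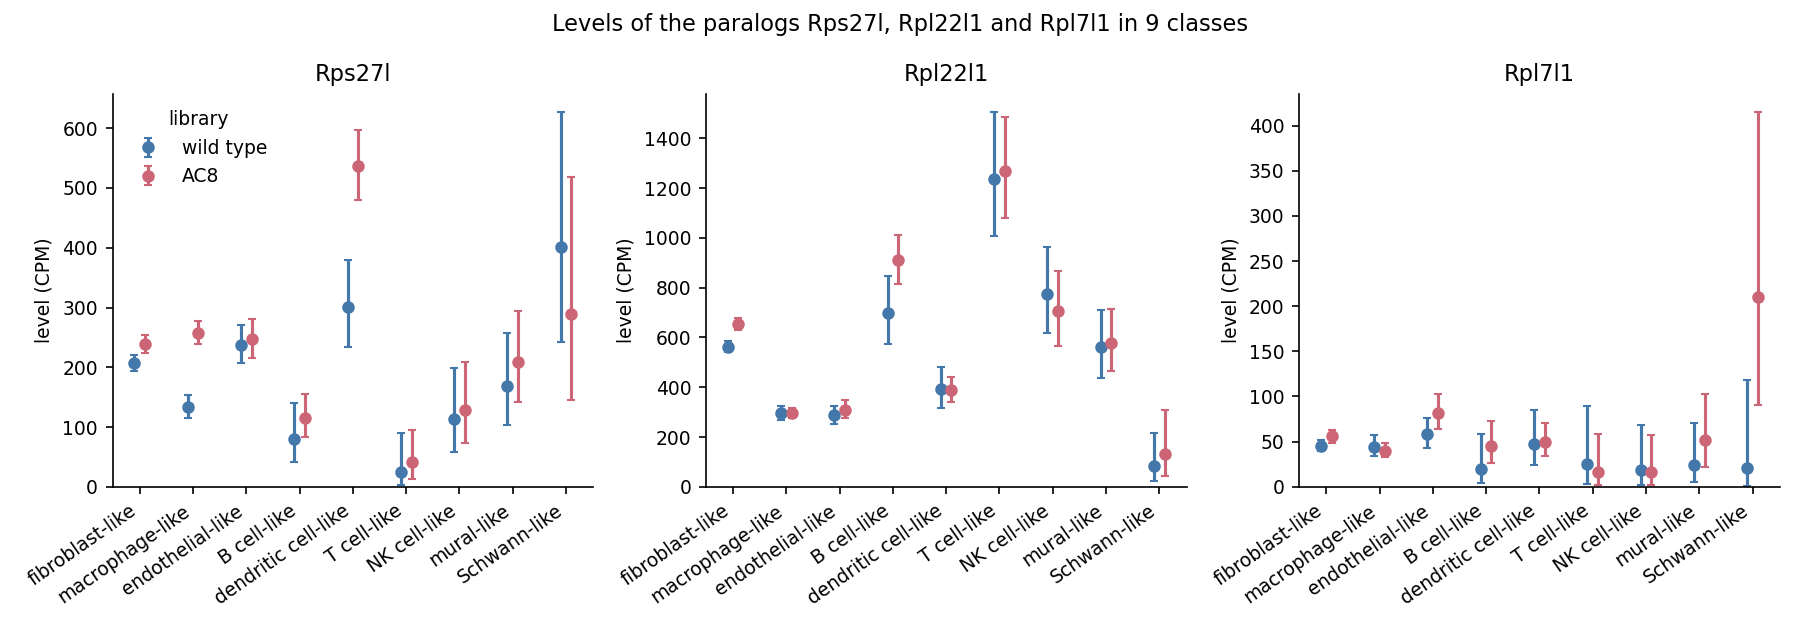
Levels of Rps27l, Rpl22l1 and Rpl7l1 in CPM (vertical axes, from 0) in 9 cell classes, 1 point per library with exact 95% Poisson intervals. Rps27l stands higher in AC8 in macrophage-like (134 and 257 CPM) and dendritic cell-like cells (301 and 536 CPM), and Rpl22l1 is highest in T cell-like cells (1238 and 1269 CPM).

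The genes whose log2 CPM most resembled that of Rpl10 over the 8 combinations of class and library included the members Rplp1 (Pearson r = 0.93) and Rpl23a (0.90), and outside the family Rack1 (0.93), Usp9x (0.92) and Tpt1 (0.85). For Rps12 they included Rplp1 (0.96) and Rpl13a (0.94), and Tpt1 (0.97), Usp9x (0.95) and Nktr (0.94). The 8 points share 2 libraries and their depths, so these values are a description.

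Genes of the ribosome and of translation outside the name pattern held both directions as well. Rack1, a scaffold protein of the small subunit, had 422 and 260 CPM in fibroblast-like, 474 and 256 CPM in macrophage-like, 367 and 190 CPM in endothelial-like and 673 and 331 CPM in B cell-like cells. It was 1 of the 6 other genes at least 1.5-fold lower in all 4 classes. Tpt1, the translationally controlled tumour protein, whose mRNA has a TOP element, was another, with log2 ratios of -0.76, -0.81, -0.60 and -0.78. The others were Ash1l, Ier5 and the mitochondrially encoded mt-Nd6 and mt-Nd3. Neither Rack1 nor Tpt1 shared a stretch of 50 bases with another gene in the last 300 bases of the transcript searched. Fau, which encodes a ubiquitin-like protein fused to the small subunit protein S30, was higher (log2 ratios 0.40, 0.07, 0.28 and 0.33).

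Few translation factors and other TOP mRNAs passed 1.5-fold. Of 18 measured in each class, 8, 6, 8 and 6 were higher and 10, 12, 10 and 12 were lower in fibroblast-like, macrophage-like, endothelial-like and B cell-like cells, with medians of -0.07, -0.10, -0.02 and -0.20. Past 1.5-fold, 1, 0, 1 and 1 were higher (0.799%, 5.79%, 4.15% and 9.45% of all genes). Lower past it were 1, 1, 1 and 1 (2.88%, 6.25%, 5.58% and 11.6%). The share of all genes above or below 0 was not counted, so plain counts of higher and lower genes in this and the later lists are a description. The elongation factor subunit Eef1d (0.50, 0.19, 0.56 and 0.78) and the initiation factor subunit Eif3l (0.63, 0.36, 0.76 and 0.39) were higher, and Eef1a1, which brings aminoacyl-tRNA to the ribosome, was lower (-0.44, -0.44, -0.28 and -0.48). Of the ribosome biogenesis genes, 13 of 34 were higher in fibroblast-like, 20 of 33 in macrophage-like, 17 of 27 in endothelial-like and 7 of 16 in B cell-like cells, with medians of -0.08, 0.13, 0.05 and -0.12. Nhp2, of the box H/ACA particles that modify ribosomal RNA, had log2 ratios of 0.24, 0.51, 0.56 and 0.92, and Ubtf, a factor for ribosomal RNA transcription, -0.32, 0.14, 0.01 and 1.19. For mTORC1 and the control of TOP mRNAs, 8 of 17, 7 of 16, 6 of 13 and 3 of 7 were higher (medians -0.03, -0.07, -0.05 and -0.33), and Larp4, which binds poly(A) tails and stabilises ribosomal protein mRNAs, stood at -0.76, -0.70, -0.53 and 0.53. Myc had 0.05, 0.00 and 0.80 in fibroblast-like, macrophage-like and B cell-like cells and was not measured in endothelial-like cells. Of the ribosomal protein pseudogene rows, only Rpl9-ps6 and Rpl10-ps3 reached 30 UMIs, and neither passed 1.5-fold.

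Most of the ribosomal proteins of the mitochondrion, which are encoded in the nucleus, were higher in AC8 in each of the 4 classes. In fibroblast-like cells 66 of 78 were higher (median 0.19), in macrophage-like cells 63 of 77 (median 0.39), in endothelial-like cells 50 of 73 (median 0.11) and in B cell-like cells 13 of 22 (median 0.05). The medians over all genes measured were -0.05, -0.02, -0.02 and -0.03 in the same order. The share of all genes above 0 was not counted. In macrophage-like cells 19 of the 77 passed 1.5-fold higher, where 5.79% of all genes did, and 0 passed lower, where 6.25% did. The counts past 1.5-fold were 0 higher and 0 lower of 78 in fibroblast-like cells, where 0.799% and 2.88% of all genes passed. They were 3 and 0 of 73 in endothelial-like cells (4.15% and 5.58%) and 2 and 2 of 22 in B cell-like cells (9.45% and 11.6%). The count past 1.5-fold higher thus stood above the share of all genes in macrophage-like cells alone. In macrophage-like cells Mrpl40 had 15.3 and 47.0 CPM (3.07, 1.92 to 5.13) and Mrpl28 29.2 and 58.9 CPM (2.02, 1.42 to 2.93). Most genes encoded by the mitochondrial genome were on the other side. Lower were 9 of 13 in fibroblast-like (median -0.47), 12 of 13 in macrophage-like (-0.66), 8 of 13 in endothelial-like (-0.20) and 9 of 13 in B cell-like cells (-0.25). Their summed share of UMIs differed less, at 1.80% and 1.68%, 2.02% and 1.61%, 2.10% and 2.13%, and 3.06% and 2.86% in the same order. Among these genes mt-Nd6, a subunit of complex I, had log2 ratios of -0.80, -0.88, -0.73 and -1.02. Of the genes of the response to tissue dissociation, 25 of 31 were lower in fibroblast-like and 22 of 31 in macrophage-like cells. In endothelial-like cells 21 of 31 were higher, and in B cell-like cells 15 of 26. Past 1.5-fold, 6 and 7 of 31 were lower in the first 2 classes (2.88% and 6.25% of all genes) and 0 higher (0.799% and 5.79%). In endothelial-like cells 6 of 31 were higher (4.15%) and 0 lower (5.58%), and in B cell-like cells 4 of 26 higher (9.45%) and 3 lower (11.6%). The heat shock gene Hsph1 was lower in all 4 (-0.76, -1.45, -0.52 and -1.04), and Hspa1b had -0.43, -1.25 and 0.12 in the first 3. Their part in the offsets of single members was not tested.

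**Figure D5:**
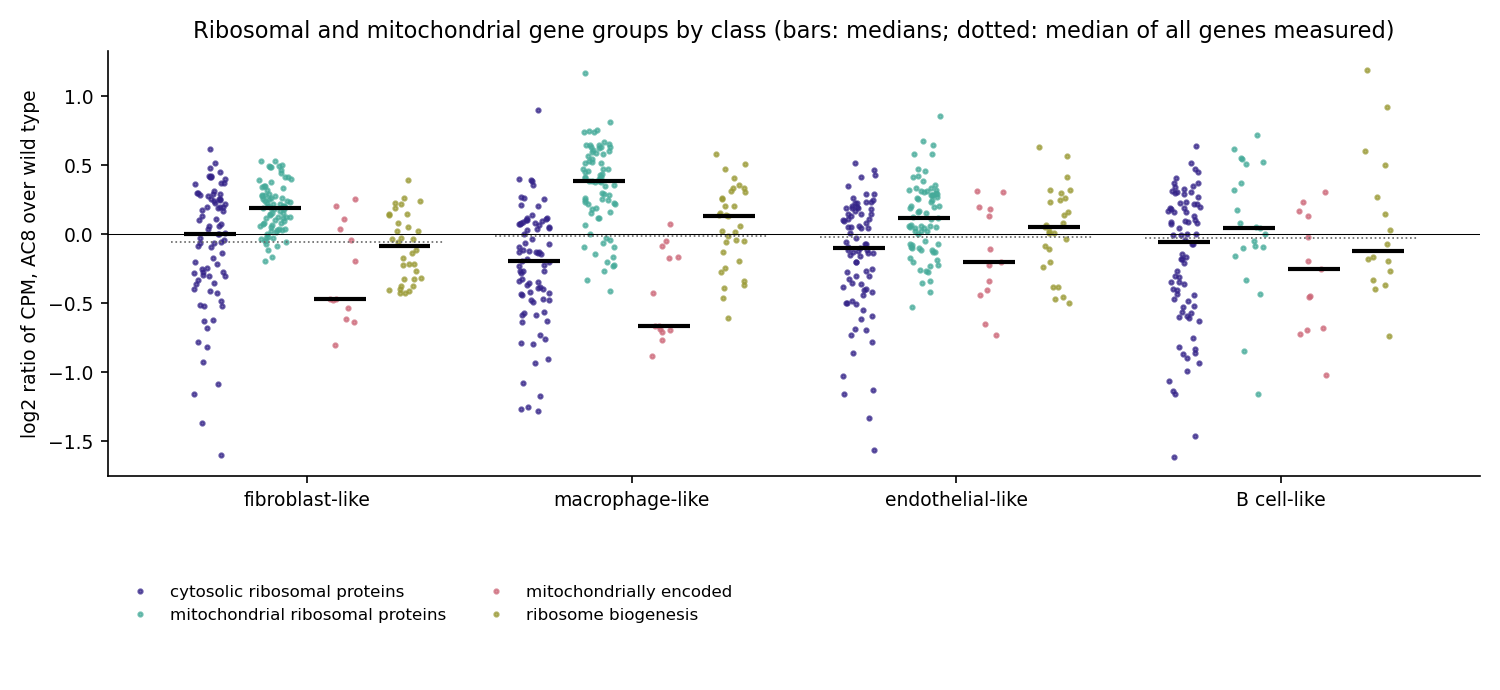
Points are genes with at least 30 UMIs in a class, by log2 ratio of CPM (AC8 over wild type, vertical axis) and gene group within each of 4 classes, with bars at the group medians and a dotted line at the median of all genes measured. The cytosolic ribosomal proteins have a long lower tail in every class, and in macrophage-like cells the mitochondrial ribosomal proteins (median 0.39) lie above them (median -0.20).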

How the data were processed

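The deposited values are counts of UMIs per gene and cell, made with Cell Ranger per the labels' protocols; no version is given in the sources used here, and the submitters' processing notes name the build mm10. Cells needed at least 1000 UMIs, 500 genes and at most 10% mitochondrially encoded UMIs, which removed 2066 and 1126 cells for low counts and 15 and 18 for mitochondrial share. Doublets were scored against simulated ones within each library, and 173 and 145 cells removed. The 2000 most variable genes, without ribosomal protein genes and their pseudogenes, were reduced to 30 components and clustered with the Leiden algorithm (resolution 1; Python 3.11.15, scipy 1.17.1, leidenalg 0.10.2). Clusters were named from class markers by a scoring rule set after seeing the data. Counts were summed per class and library. Intervals are exact at 95% (Poisson for CPM, binomial form for ratios, Clopper-Pearson for shares) and treat UMIs as independent, although those of 1 gene can lie in few cells. The calculation was tested on simulated data. Named genes were Rpl10, Rps12, paralogs with their partners, the stalk genes and Rpsa, the 4 highest and 4 lowest members per class on the family scale with at least 100 UMIs, the 6 with the widest range over classes, the nearest genes by correlation and the largest ratios of each related list. Members named beyond that rule (among them Rps6, Rpl5, Rpl12, Rpl13a, Rpl17, Rpl18, Rpl37, Rpl39, Rps10, Rps14, Rps16, Rps21, Rps25 and Rps26) and genes low or high in all 4 classes were chosen after their values were seen. Some members are not reported here. The members and lists were chosen with earlier results of these data known. Of 4 nuclear-retained RNAs listed, 0 are among the gene symbols.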

Additional observations from a re-analysis of the deposited data

Results flagged for a closer look

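The ribosomal share differed in opposite directions between classes of the same pair of libraries, and these differences between classes were not tested. The ratio of AC8 to wild type was 1.026 in fibroblast-like cells, against 0.900 in macrophage-like, 0.964 in endothelial-like and 0.987 in B cell-like cells, each with a counting interval that leaves out 1. Clusters within a class differed in the same way. In macrophage-like cells the ratio was 0.877 in the C1qc cluster and 1.12 in the Lyve1 cluster. In fibroblast-like cells it was above 1 in 5 clusters (1.01, 1.04, 1.05, 1.04 and 1.20) and below 1 in 2 (0.964 and 0.980), the last pair being the clusters led by Pi16 and Mfap5.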

How the results depend on the processing

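The 8 members at least 1.5-fold lower in all 4 classes were the same 8 under 9 of the 11 alternatives that left 4 classes to compare. With all deposited cells and with clusters built with ribosomal protein genes 7 of them remained. A minimum of 2000 UMIs and 1000 genes left no B cell-like class of 100 cells, and over 3 classes 8 members passed, 7 of them shared. The log2 ratio of Rps12 stayed between -1.45 and -1.11 and that of Rpl10 between -1.51 and -1.09 over every setting and class, and that of Rps27l in macrophage-like cells between 0.72 and 0.94. The count of lower members stayed within 1.5 times in every class. The count of higher members is small: it became 2 in B cell-like cells with all deposited cells and with all members with a UMI, 0 there without doublet removal, 3 in endothelial-like cells under the higher minimum and 1 with the largest cluster alone. In endothelial-like cells under the higher minimum, the ratio of the ribosomal share turned from 0.964 to 1.05 and the log2 ratio of Rps27l from 0.05 to -0.38, and the cause was not tested. With all deposited cells the ratio of the share was 0.921 in macrophage-like, 0.948 in endothelial-like and 0.923 in B cell-like cells. The higher minimum gave 0.920 in macrophage-like cells. Without doublet removal it was 1.03, 0.906, 0.975 and 0.963 in fibroblast-like, macrophage-like, endothelial-like and B cell-like cells, as a mean over cells 1.01 and 0.894 in the first 2, and in the largest cluster 1.01, 0.877 and 0.982 in the first 3. No replicate could be left out, with 1 library per genotype. No paired analysis was possible because each genotype has 1 library. At 110 wild-type B cell-like cells, a member under about 100 UMIs has a ratio known only to within a wide interval.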
